A study of Mus musculus with 2 samples.

Results

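The genes described here encode the translation initiation factors (Eif1 to Eif6) and elongation factors (Eef1 and Eef2) of the mouse. They were taken by symbol: every name that starts with Eif and a digit from 1 to 6, or with Eef and 1 or 2, with names holding -ps and Eif2s3y left out. The rule gave 67 genes of the 43346 mouse genes in the tables, 55 Eif and 12 Eef genes, and used no measured value. It also took in Eif2c5, which GENCODE M21 lists as a long intergenic non-coding RNA.

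The material was midbrain of newborn (postnatal day 0) mice of the B6NCrl strain, with 1 midbrain from pup 1 and another from pup 3. Each library started from 13 pg of total RNA longer than 200 bases, stated as 1 cell-equivalent, with spike-in RNAs added before amplification. The labels name the assay single-cell RNA-seq, but the input was tissue RNA, so that fewer cells of a type and less RNA per cell cannot be told apart. Both libraries belong to 1 group, so no condition was compared, no test was run, and a difference between pups has no replicate check. The labels give no sex and the same donor record for both pups.

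Levels are TPM, transcript abundances scaled by length and to a fixed total in each library. The libraries held 26583225 and 33142647 expected counts in pup 1 and pup 3. A count of 0 allows up to 0.115 and 0.0926 CPM (counts scaled to a fixed total of mouse gene counts), and such limits cover counting error only. All 5 neuron markers and all 3 radial glia markers reached a TPM of 1 in both libraries, whereas 5 Hox genes of hindbrain and cord were at 0 in both. Of 6 midbrain markers, Th (46.9 and 38.5 TPM) reached a TPM of 1 in both libraries. Otx2, Pitx3 and Slc6a3 did so in pup 1 alone, En2 in pup 3 alone, and En1 in neither. The 2 erythroid markers summed to 804 and 1380 TPM and the 3 meningeal markers to 2811 and 3882 TPM. Both sums were higher in pup 3, and their part in the levels below was not tested.

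Initiation factors load the initiator tRNA and the capped mRNA on the small ribosomal subunit and find the start codon. Elongation factors then bring each aminoacyl-tRNA to the ribosome and move it along the message. Newborn neurons grow axons and dendrites and make much protein. Several of these factors have tissue-specific paralogs, of which Eef1a2 is known to replace Eef1a1 in mature neurons and muscle.

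The factor genes held 1.78% of mouse gene counts in pup 1 and 1.32% in pup 3. By TPM their share was 1.64% and 1.15%, a mean of 1.40% ± 0.345 (SD, n = 2). Eef1a1 alone made up 35.9% and 25.5% of their summed TPM, and the 10 highest factor genes made up 78.4% and 64.5%. In pup 1, 4 factor genes stood among the 100 highest mouse genes, and in pup 3 Eef1a1 was the only one. In each library 15 stood among the 1000 highest.

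At a TPM of 1 or more, 53 of the 67 genes were detected in both libraries, 5 in pup 1 alone, 1 in pup 3 alone and 8 in neither. Of the 59 seen at all, 89.8% were thus in both, against 60.8% of the 12144 mouse genes seen at all. The factor genes sat higher than most: their median TPM was 75.8 and 92.1, against 26.5 and 32.2 over all detected genes. At a mean TPM of 20 to 100 the shares lay closer, at 95.8% of 24 factor genes and 85.6% of 4364 mouse genes. No count was assigned in either library to 6 factor genes: the eIF2 kinases Eif2ak2 and Eif2ak3, the cap-binding paralogs Eif4e1b and Eif4e3, Eif4ebp3 and Eif2c5.

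**Figure D1:**
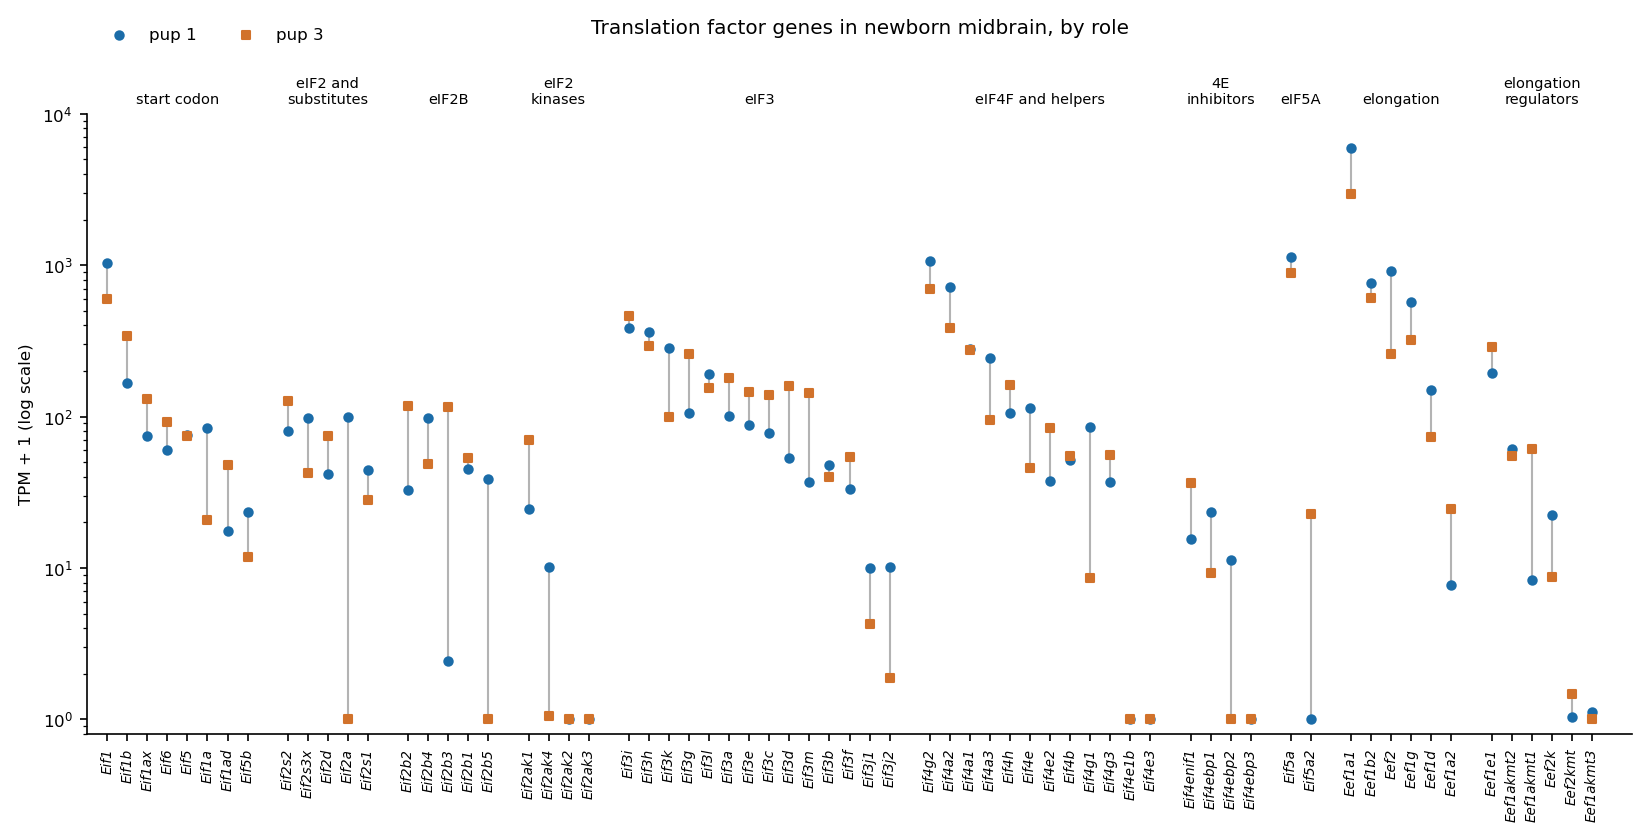
TPM + 1 on a log axis for 66 factor genes grouped by role (Eif2c5, at 0, is left out), with circles for pup 1, squares for pup 3 and a line joining each gene's values. Eef1a1 stands above all others in both libraries, and long lines mark genes near 0 in a single library, such as Eif2a, Eif2b3 and Eif2b5.

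Pups were compared by counts with a rule of size. A gene was listed where its counts, scaled to the mouse gene total of the library, differed with an exact (Clopper-Pearson) 95% interval of the ratio wholly beyond 4-fold. Of all mouse genes at a TPM of 1 or more in at least 1 library, 46.5% were listed, 25.9% as higher in pup 1 and 20.5% as higher in pup 3. Among the 59 factor genes 11 were listed (18.6%), with 7 higher in pup 1 and 4 higher in pup 3. The share depended on level: at a mean TPM of 100 or more, 4.02% of mouse genes and 0 of 25 factor genes were listed. At 20 to 100 TPM these were 29.2% and 5 of 24 genes, and at 1 to 20 TPM 70.3% and 6 of 10 genes. No test of these differences in share was made.

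**Figure D2:**
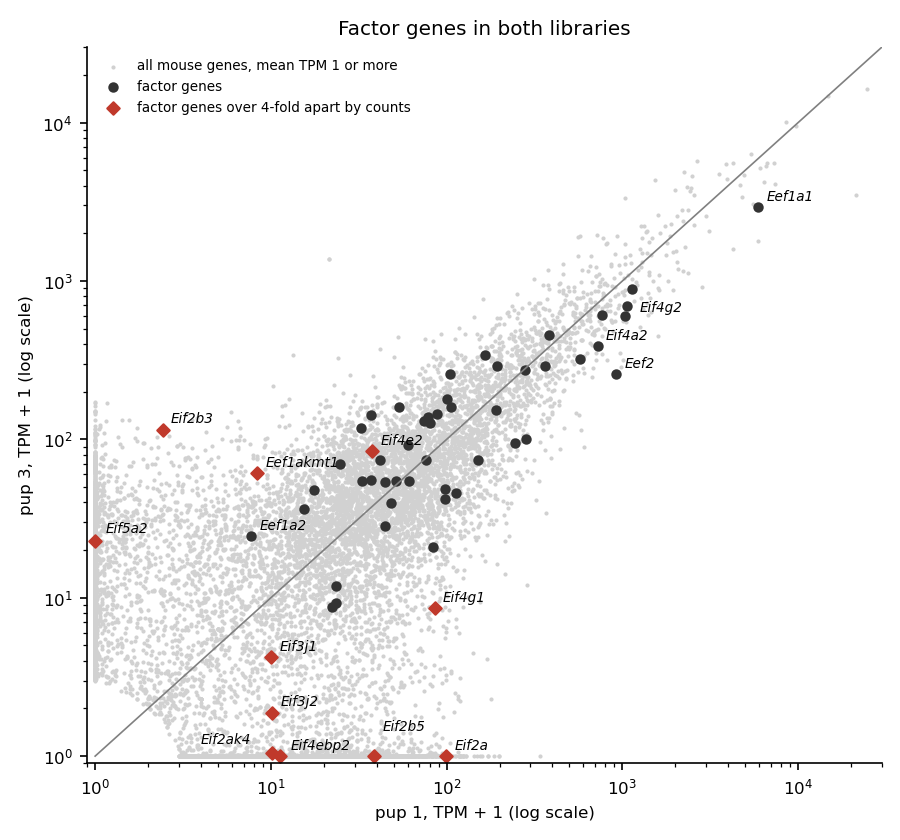
TPM + 1 in pup 1 against pup 3, on log axes with the line of equal values, for mouse genes whose TPM averaged at least 1 (grey) and factor genes (dark circles, or red diamonds where listed as over 4-fold apart by counts). None of the 11 diamonds has a mean TPM of 100 or more.

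The median log2 ratio of pup 3 over pup 1, on TPM + 1, was -0.16 over the 59 factor genes whose TPM averaged at least 1 and -0.05 over 11717 mouse genes. This order of both medians was not kept throughout: they were -0.16 and -0.30 with posterior mean TPM, and -0.15 and -0.14 with CPM scaled by TMM. By TPM 32 of them were higher in pup 1 and 27 in pup 3. By counts scaled to the mouse total the split was 29 and 30, and with edgeR's TMM factors, which shift every log2 ratio by 0.19, it was 35 and 24. The median size of the difference was 2.03-fold, against 3.12-fold over all mouse genes, whose median level was lower. At an average of at least 100 TPM the order turned, with a median absolute log2 ratio of 0.82 over 25 factor genes and 0.59 over 1667 mouse genes. Across the 59 genes the levels of both pups correlated with Pearson's r = 0.668 and Spearman's rho = 0.734 on log2(TPM + 1), a description across genes, which are not replicates.

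Elongation began with eEF1A, the GTPase that brings aminoacyl-tRNA to the ribosome. Eef1a1 (ENSMUSG00000037742.10, GRCm38 chr9:78478449-78489151, minus strand) was at 5896 TPM in pup 1 and 2940 TPM in pup 3, 4418 ± 2090 TPM (SD, n = 2). It ranked 13 and 31 among mouse genes. Its paralog Eef1a2 (GRCm38 chr2:181147653-181157014, minus strand) was at 6.71 and 23.6 TPM, from 217 and 1068 counts. Eef1a2 thus made up 0.114% of the pair's TPM in pup 1 and 0.797% in pup 3. Eef1a1 was 879 and 124 times as high, a log2 ratio of TPM + 1 of 9.58 and 6.90 with a mean of 8.24 ± 1.89 (SD, n = 2). The deposited TPM intervals of the pair, 5645 to 5764 against 5.67 to 7.40 in pup 1 and 2838 to 2905 against 21.7 to 24.5 in pup 3, did not overlap in either library. Both pups showed the same order, while the share of Eef1a2 differed between them. The deposited TPM of Eef1a1 lay above its own deposited interval, which surrounds a posterior mean of 5706 and 2872 TPM. This was not particular to Eef1a1: it also held for Eef2 and Eif5a in both libraries and for Eif4a2 in pup 1. Others, such as Eif4a1, lay within their intervals.

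The order of this pair rests on telling the transcripts apart, so the start of both coding sequences is shown, read from GENCODE M21 transcripts, 5′ to 3′ from the start codon. Capitals mark the 15 of 90 bases that differ.
Eef1a1: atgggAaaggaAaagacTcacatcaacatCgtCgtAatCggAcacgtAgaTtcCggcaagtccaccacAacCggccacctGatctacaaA
Eef1a2: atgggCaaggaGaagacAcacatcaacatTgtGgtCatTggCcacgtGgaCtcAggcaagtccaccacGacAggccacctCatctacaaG
Over the whole coding sequence 1110 of 1386 aligned bases (80.1%) were identical, and the longest identical stretch was 23 bases. The counts of Eef1a1 carried a posterior SD of 13.1 in pup 1 and 9.51 in pup 3, which is 0.00908% and 0.0101% of its counts. Another 9 annotated pseudogenes matched Eef1a1 at 90% identity or more over 50% or more of their length, and together held 0.541% and 0.269% of the summed counts.

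The other elongation subunits were also among the high factor genes. Eef1b2, Eef1d and Eef1g, which form the complex that reloads eEF1A with GTP, were at 765 and 605 TPM, at 150 and 72.7 TPM, and at 573 and 322 TPM. Eef2, the GTPase that moves the ribosome by a codon, was at 917 and 257 TPM, or 587 ± 466 TPM (SD, n = 2). By TPM, 5 of the 6 elongation genes were higher in pup 1, and Eef1a2 was higher in pup 3. Of all mouse genes averaging at least 1 TPM, 49.1% were higher in pup 3. Eef1b2 was higher in pup 3 by CPM (295 and 317), so that by counts scaled to the mouse total the split was 4 to 2. None of the 6 was listed by the rule of size. All but Eef1a2 averaged 100 TPM or more, where the rule listed 4.02% of mouse genes. Eef1a2 averaged 15.2 TPM, and at 1 to 20 TPM the rule listed 70.3%.

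Of the elongation regulators, Eef1e1, a scaffold of the tRNA synthetase complex, was at 193 and 289 TPM. Eef2k, the kinase that inhibits eEF2, was at 21.4 and 7.69 TPM, but at 438 and 559 counts its CPM was 16.8 and 17.2. Among the lysine methyltransferases of eEF1A, Eef1akmt2 was at 60.1 and 53.5 TPM. Eef1akmt1 was at 7.33 and 60.3 TPM, 9.25-fold higher in pup 3 by counts (95% interval 7.43 to 11.6). Eef1akmt3 (0.12 and 0 TPM) and Eef2kmt, which methylates eEF2 (0.04 and 0.47 TPM), stayed under a TPM of 1.

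Start codon recognition was led by Eif1, which keeps the scanning ribosome from starting at wrong codons, at 1039 and 597 TPM. Its paralog Eif1b was at 165 and 341 TPM. Eif1 exceeded Eif1b in both libraries (log2 ratio 2.64 and 0.81, mean 1.73 ± 1.30, SD, n = 2), and their intervals did not overlap. The coding sequences were 81.1% identical over 339 bases. Eif1ax and Eif1a encode forms of eIF1A, the partner of eIF1: Eif1ax was at 73.5 and 130 TPM and Eif1a at 83.2 and 19.9 TPM. Their order differed between pups (log2 ratio -0.18 and 2.65).

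Eif5, which triggers GTP hydrolysis on eIF2, was at 74.8 and 72.9 TPM. Eif5b, which joins the ribosomal subunits, was at 22.5 and 10.9 TPM, and Eif6, which holds the large subunit apart, was at 59.1 and 90.7 TPM. Eif1ad was at 16.5 and 47.2 TPM. All 8 genes of this role were detected in both libraries, and 4 were higher in each pup by TPM. None was listed by the rule of size. Eif1a was nonetheless over 4-fold apart by TPM, was 3.73-fold higher in pup 1 by counts, and was listed under DESeq2 scaling. Of mouse genes at 100 TPM or more, 20 to 100 TPM and 1 to 20 TPM, the rule listed 4.02%, 29.2% and 70.3%. At 100 TPM or more, 20 to 100 TPM and under 20 TPM, 99.9%, 85.6% and 32.5% were detected in both.

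The eIF2 trimer carries the initiator tRNA. Its subunit genes were measured at 43.6 and 27.3 TPM (Eif2s1), 79.3 and 126 TPM (Eif2s2), and 96.6 and 41.2 TPM (Eif2s3x). The highest subunit was Eif2s3x in pup 1 and Eif2s2 in pup 3, so the order was not shared. Eif2d, which can place tRNA without eIF2, was at 41.0 and 73.3 TPM. Eif2a, another initiator tRNA carrier and no subunit of eIF2, was at 98.3 TPM from 2574 counts in pup 1 and at 0 counts in pup 3. By counts it was at least 1068-fold higher in pup 1, with 0 taken as a floor of 3 counts.

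eIF2B returns eIF2 to its GTP form, and mutations of its genes cause a white matter disease in humans. Eif2b1 was at 43.8 and 52.4 TPM, Eif2b2 at 31.5 and 116 TPM, and Eif2b4 at 96.9 and 47.3 TPM. None of these 3 was listed by the rule of size, though by counts Eif2b2 was 4.10-fold higher in pup 3 (95% interval 3.76 to 4.46). Eif2b5, the catalytic subunit, was at 37.7 TPM from 1895 counts in pup 1 and at 0 counts in pup 3. It was 786-fold higher in pup 1 against the same floor, and its 95% interval began at 639-fold. Eif2b3 went the other way, with 32 counts (1.42 TPM) in pup 1 and 3942 counts (114 TPM) in pup 3, 99.0-fold higher in pup 3 (95% interval 70.0 to 145). In each library 4 of 5 subunits lay between 31.5 and 116 TPM, and the fifth was near or at 0, but it was a different subunit.

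**Figure D3:**
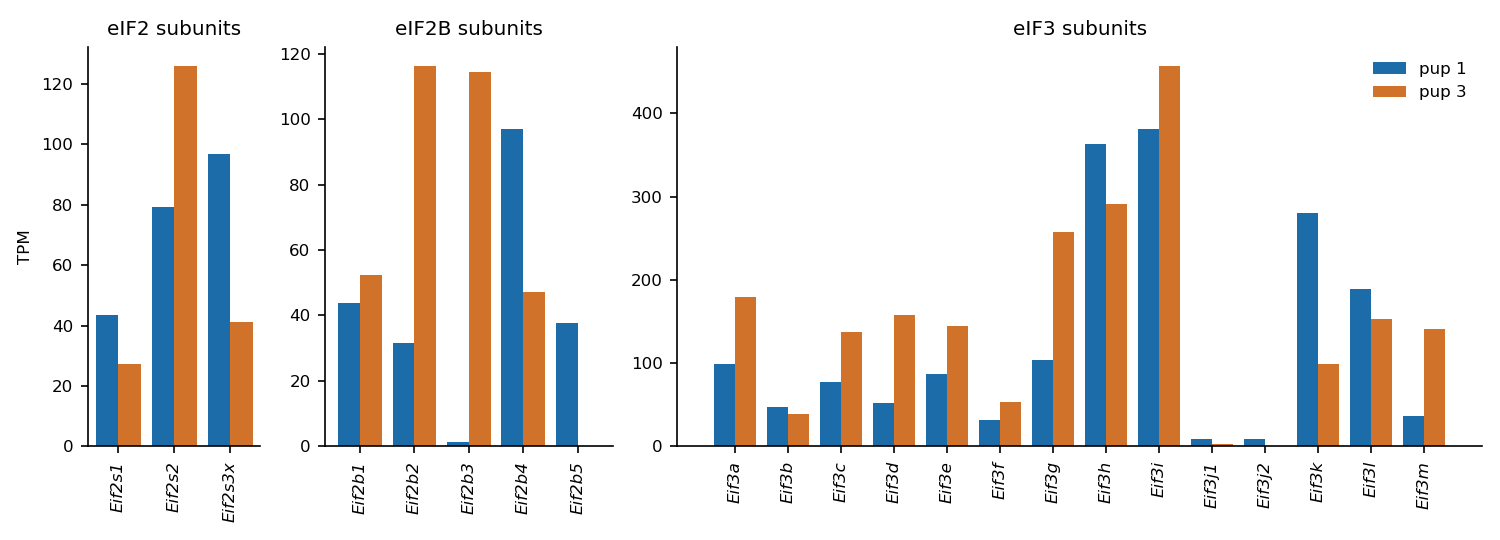
TPM of each subunit of eIF2, eIF2B and eIF3 as bars from 0, blue for pup 1 and orange for pup 3. Eif2b3 is near 0 in pup 1 and Eif2b5 is at 0 in pup 3, while Eif3h and Eif3i stand above most eIF3 subunits in both.

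Of the eIF2 kinases, which lower initiation under stress, Eif2ak1, the kinase that senses heme, was at 23.6 and 68.7 TPM. Eif2ak4, which senses amino acid shortage, had 241 counts (9.14 TPM) in pup 1 and 5 counts (0.05 TPM) in pup 3, 60-fold higher in pup 1 (95% interval 25.4 to 186). Eif2ak2 and Eif2ak3, the kinases known for double-stranded RNA and for unfolded proteins in the endoplasmic reticulum, had no counts. Eif2ak1 was the sole kinase detected in both libraries.

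eIF3 is the large scaffold that binds the small ribosomal subunit. Eif3i and Eif3h were high in both libraries, at 381 and 457 TPM and at 363 and 291 TPM. Eif3k was at 281 and 98.9 TPM and Eif3l at 189 and 153 TPM. In the middle were Eif3g at 104 and 258 TPM, Eif3a at 99.2 and 180 TPM, Eif3e at 86.8 and 144 TPM, Eif3c at 76.9 and 137 TPM, and Eif3d at 52.6 and 158 TPM. Eif3m was at 36.1 and 141 TPM, Eif3b at 47.0 and 38.7 TPM, and Eif3f at 32.1 and 53.2 TPM.

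None of these 12 subunits was listed as over 4-fold apart. Both eIF3j genes, Eif3j1 and Eif3j2, were listed, so the rule took 2 of the 14 eIF3 genes. At 20 to 100 TPM and at 100 TPM or more, the rule listed 29.2% and 4.02% of mouse genes, and 85.6% and 99.9% were detected in both. All 12 subunits were detected in both libraries, with medians of 93.0 and 149 TPM. The highest was 11.9 and 11.8 times the lowest, and over the mean of both pups the ratio was 9.82. Ranks correlated between pups with rho = 0.678 over the 12 genes, a description across genes. By TPM 8 of the 12 were higher in pup 3, as they were under each of 4 scalings of the counts (mouse total, TMM, DESeq2 and spike-ins). With Eif3j1 and Eif3j2 included, 8 of 14 were higher in pup 3 and 6 in pup 1 by TPM. Over all mouse genes 49.1% were higher in pup 3 by TPM.

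The eIF3j genes lay far below the rest, at 8.99 and 3.24 TPM for Eif3j1 and at 9.17 and 0.88 TPM for Eif3j2. By counts they were 6.53-fold and 9.23-fold higher in pup 1. With Eif3j1 counted as a subunit, the highest eIF3 subunit was 68.5 times the lowest over the mean of both pups (42.4 and 141 in each library). This fold covers only subunits detected in both libraries. It leaves out Eif3j2, whose mean TPM of 5.03 was lower than that of Eif3j1 at 6.12, so the fold depends on that filter. The coding sequences of Eif3j1 and Eif3j2 were identical over all 783 aligned bases, and the files divide shared reads by estimate. The posterior SD was 23.8 of 778 counts and 23.8 of 341 counts in pup 1, so neither gene's own level is certain.

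eIF4F recruits the capped mRNA: eIF4E binds the cap, eIF4G is the scaffold and eIF4A the RNA helicase. Eif4g2, a scaffold that lacks the site for eIF4E, was at 1063 and 698 TPM, 880 ± 259 TPM (SD, n = 2). Eif4g1, the main scaffold, was at 84.3 TPM from 3738 counts in pup 1 and 7.62 TPM from 499 counts in pup 3. By counts Eif4g1 was 9.32-fold higher in pup 1 (95% interval 8.49 to 10.3). Eif4g3 was at 36.2 and 54.8 TPM. Eif4g2 exceeded Eif4g1 in both libraries (log2 ratio 3.64 and 6.34, mean 4.99 ± 1.91, SD, n = 2), whereas the order of Eif4g1 and Eif4g3 differed between pups (1.20 and -2.69). On protein coding transcripts alone Eif4g1 was at 30.8 and 2.68 TPM and Eif4g3 at 31.8 and 6.52 TPM, so Eif4g3 was then the higher gene in both pups, by little in pup 1.

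Of the cap-binding genes, Eif4e was at 113 and 44.9 TPM. Eif4e2, which binds caps but does not join eIF4G and is known as a repressor, was at 36.8 and 83.3 TPM. Their order differed between pups (log2 ratio 1.59 and -0.88). By counts Eif4e2 was 4.34-fold higher in pup 3 (95% interval 4.03 to 4.69), and it was no longer listed under TMM, DESeq2 or spike-in scaling. The helicase cofactors Eif4b and Eif4h were at 50.6 and 53.8 TPM and at 105 and 160 TPM. Eif4a3, a helicase of the exon junction complex, was at 243 and 93.5 TPM.

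The helicase genes Eif4a1 (GRCm38 chr11:69666936-69672423, minus strand) and Eif4a2 (chr16:23107444-23114136, plus strand) were at 277 and 274 TPM and at 721 and 386 TPM. Eif4a2, known to be abundant in brain, was the higher gene in both libraries (log2 ratio of Eif4a1 over Eif4a2 -1.38 and -0.49, mean -0.93 ± 0.63, SD, n = 2). Its intervals, 688 to 714 and 368 to 388 TPM, did not overlap those of Eif4a1, 264 to 278 and 263 to 276 TPM. Nonsense mediated decay and retained intron transcripts also contribute to Eif4a2. The highest of them by TPM was ENSMUST00000131871.3, a nonsense mediated decay transcript of 1737 bases, at 112 and 68.3 TPM. On transcripts annotated as protein coding, Eif4a1 was at 266 and 272 TPM and Eif4a2 at 437 and 138 TPM, so the order held in pup 1 and turned in pup 3, and the mean log2 ratio became 0.13.

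Both coding sequences were 78.2% identical over 1218 aligned bases. A 90-base window near the start, from base 37 of the Eif4a1 coding sequence and base 43 of that of Eif4a2, shows the differences that separate their reads, read from GENCODE M21 transcripts, 5′ to 3′. Capitals mark the 18 bases that differ.
Eif4a1: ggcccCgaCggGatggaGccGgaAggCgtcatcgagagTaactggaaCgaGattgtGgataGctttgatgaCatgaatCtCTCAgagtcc
Eif4a2: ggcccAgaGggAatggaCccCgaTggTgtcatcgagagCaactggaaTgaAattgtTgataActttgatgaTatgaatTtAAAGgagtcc
The longest identical stretch of the pair was 20 bases. Pseudogenes near Eif4a1, 2 in number, held 2.30% and 6.85% of the summed counts, mainly Eif4a-ps4 with 174 and 765 counts.

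The 4E-binding proteins compete with eIF4G for eIF4E when mTOR is low. Eif4ebp1 was at 22.5 and 8.31 TPM. Eif4ebp2, the form known as the main one in adult brain, had 284 counts (10.3 TPM) in pup 1 and 0 counts in pup 3. It was 118-fold higher in pup 1 against the floor of 3 counts, and its 95% interval began at 95.2-fold. Eif4ebp1 was the higher of the pair in both libraries, with intervals of 19.5 to 24.2 against 8.92 to 11.3 TPM in pup 1. Eif4ebp3 had no counts. Eif4enif1, which carries eIF4E to sites of mRNA decay and storage, was at 14.5 and 35.2 TPM but at 688 and 459 counts, so that TPM and CPM named different pups as higher.

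eIF5A helps ribosomes past stretches of proline and carries hypusine, a modified lysine. Eif5a was the factor gene of highest mean TPM after Eef1a1, at 1135 and 883 TPM, 1009 ± 178 TPM (SD, n = 2). Eif5a2 had 0 counts in pup 1 and 2450 counts (21.8 TPM) in pup 3, at least 656-fold higher in pup 3 by counts. In pup 3 Eif5a2 made up 2.41% of the pair's TPM. Eif5a was the higher gene in both libraries, and the coding sequences were 73.2% identical over 459 bases.

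**Figure D4:**
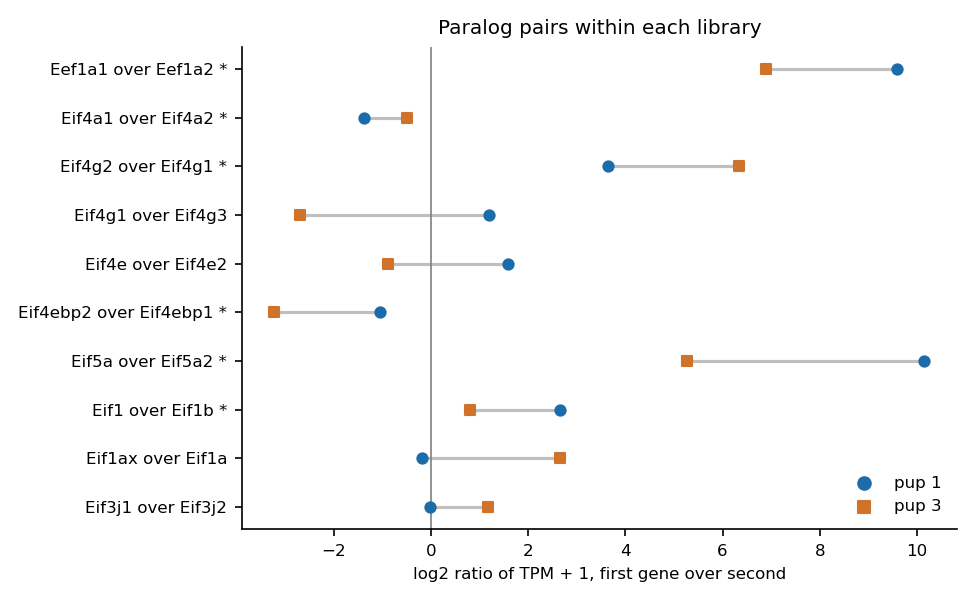
Log2 ratio of TPM + 1 within each library for 10 pairs of related factor genes, circles for pup 1 and squares for pup 3; a star marks the 6 pairs on 1 side of 0 in both libraries with deposited intervals that did not overlap. Eef1a1 over Eef1a2 lies at 9.58 and 6.90, and the other 4 pairs lie on different sides of 0.

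In 4 of the 11 genes listed by the rule of size (Eif2a, Eif2b5, Eif4ebp2 and Eif5a2) the lower library had fewer than 3 counts. For 7 factor genes TPM and CPM named different pups as higher: Eef1b2, Eif4a1, Eif5, Eef1akmt2, Eif4g3, Eif4enif1 and Eef2k. The mean transcript length that the files give for a gene differed widely between libraries for some of these, as for Eif4enif1 (3021 and 672 bases), Eif4g3 (5530 and 2274 bases) and Eef2k (1355 and 3292 bases). A gene's TPM therefore moved with the transcripts to which its reads were assigned.

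Transcripts were compared for the 32 factor genes with 2 or more annotated transcripts and at least 50 counts in each library. The leading transcript by TPM was the same in both pups for 21 (65.6%), against 62.8% of 5311 mouse genes past the same filter. Protein coding transcripts held 86.3% and 83.7% of the factor genes' TPM and 94.8% and 94.0% of their counts. Eef1a1 was led in both by ENSMUST00000042235.10 (1794 bases, 462 codons) at 84.6% and 77.2% of the gene's abundance. A processed transcript of 505 bases, ENSMUST00000143570.1, held 13.3% and 21.2%.

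Eef1d has long and short coding forms. ENSMUST00000089681.7 (2152 bases, 660 codons) held 47.5% in pup 1 and 28.6% in pup 3. ENSMUST00000116440.4 (896 bases, 257 codons) held 33.8% and 57.1%. By TPM the leading form differed between pups, while by counts the long form led in both, with 2380 and 972 counts against 658 and 754.

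Among the other leaders that differed, Eif4g2 was led by ENSMUST00000161051.3 in pup 1 (53.4%, against 33.9% in pup 3) and by ENSMUST00000162415.3 in pup 3 (38%, against 35.6% in pup 1). Both are protein coding. Eif1ax had 89.7% and 47.4% on its 5172-base coding transcript and the rest on a retained intron of 416 bases. By counts the coding transcript led Eif1ax in both, with 7138 against 494 counts in pup 3. Eef1b2 had different leaders, the 681-base coding and the 691-base nonsense mediated decay transcript, which held 43.7% and 38.6% in pup 1 and 39.0% and 44.6% in pup 3. The remaining genes with a different leader were Eef2k, Eif2b4, Eif2d, Eif3j1, Eif4e2, Eif4enif1 and Eif4g3.

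Some genes were mostly assigned to non-coding transcripts in a library. Protein coding transcripts held 96.3% of the TPM of Eif4enif1 in pup 1 and 6.40% in pup 3, where retained introns held the rest. For Eif4g3 these shares were 87.8% and 11.9%, and for Eef2k 10% and 100%. They were 47.0% and 99.9% for Eif2d, 60.6% and 35.9% for Eif4a2, and 48.8% for Eif2a in pup 1, where its coding TPM was 48.0. Eif4g1 had similar shares on protein coding transcripts, 36.6% and 35.2%, and 33.7% and 55.6% on a nonsense mediated decay transcript. Eif4h had a single transcript with counts, and Eif5a kept ENSMUST00000108613.5 in the lead at 52.6% and 67.7%. Eif4a2 kept ENSMUST00000115341.5, at 46.0% and 28.6%.

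**Figure D5:**
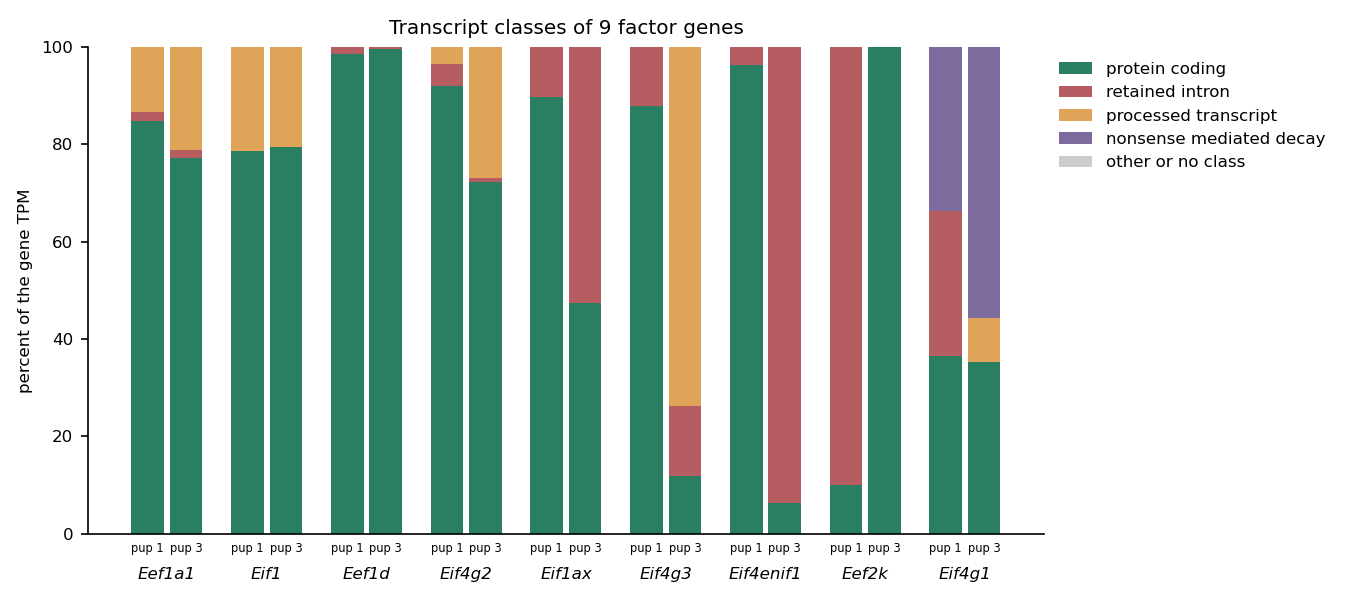
Percent of each gene's TPM on each annotated class of transcript in pup 1 and pup 3, for 9 factor genes. Eif1 is alike in both libraries, while Eif4enif1 and Eif4g3 lie mostly on protein coding transcripts in pup 1 and on other classes in pup 3.

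Other annotated rows share sequence or position with the factor genes. Pseudogene copies numbered 49 over 19 factor genes, with 13 for Eif1, and together held 0.453% and 0.617% of the counts of copies and parents. Annotated genes overlapped 35 of the factor genes, and 24 of the overlapping rows were small RNA genes inside them. Of these 24, 7 had 3 or more counts in a library, among them Snora41 in Eef1b2 (27 and 0 counts) and Snora28 in Eif5 (0 and 42 counts). Whether counting used strand is not given in the sources used here, so reads of partners on the other strand, such as Ndufs1 for Eef1b2 and Drg1 for Eif4enif1, cannot be told apart where they overlap.

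Promoter windows from RefSeq (GRCm38.p6, 250 bases before to 50 after the start, both strands searched) were found for 51 factor genes, 66 windows in all. GGGCGG, the core of the GC box, was in 68.2% of them and in 46.2% of 21263 windows of protein coding genes. CCGGAAGT, an ETS-type motif, was in 16.7% against 5.15%, and CACGTG, the E-box that MYC-type factors can bind, in 21.2% against 7.84%. TATAAA was in 6.06% against 12.6%. CACGTG was found at Eif4a1, Eif4e, Eif4g1, Eif5a and Eef2, and TATAAA at Eef2. These are matches of letters in reference sequence, with no measure of binding here.

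The factors act with other translation genes, of which 47 were taken from fixed lists. In both libraries 29 were detected, in pup 1 alone 9, in pup 3 alone 4 and in neither 5. Of the 42 seen at all, 69.0% were thus in both, against 60.8% of all mouse genes seen. By the rule of size 11 of the 42 were higher in pup 1 and 8 in pup 3, together 45.2%, near the 46.5% of all mouse genes. Another 3 were listed although detected in neither library (Dph6, Pelo and Mtif3). Pabpc1, the poly(A)-binding protein that contacts eIF4G, was at 141 and 137 TPM, and its inhibitor Paip2 was at 314 and 266 TPM, while Pabpc4 was at 0 and 115 TPM. Of 6 genes of termination and recycling, 4 were detected in both libraries. The release factor Etf1 was at 27.8 and 61.5 TPM, and its partner Gspt1 at 13.2 and 67.1 TPM. Gspt2 was at 25.5 and 0 TPM, and Abce1, which splits the ribosome, was at 65.2 and 7.72 TPM.

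Of 11 genes that control eIF4F, 5 were detected in both libraries and 6 were listed as over 4-fold apart, beside the 60.8% and 46.5% of all mouse genes. Mtor was at 24.2 and 35.3 TPM and Cyfip2, a partner of FMRP, at 74.5 and 111 TPM. Fmr1 was at 0 and 36.5 TPM, Rps6kb1 at 70.5 and 0.22 TPM and Mknk1, a kinase of eIF4E, at 63.8 and 0 TPM. Of the 6 genes downstream of eIF2 phosphorylation 5 were detected in both and none was over 4-fold apart. Atf4 was at 104 and 113 TPM, and Ppp1r15a and Ppp1r15b, which direct removal of the phosphate, were at 27.3 and 34.8 TPM and at 31.0 and 25.6 TPM. Dhps and Dohh, which make the hypusine of eIF5A, were at 64.3 and 98.6 TPM and at 13.0 and 50.8 TPM.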

How the data were processed

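RNA of 2 newborn midbrains was measured, 1 library each. Per the file headers, the authors used mm10 with GENCODE M4. Which aligner and quantifier made the tables, and whether strand was used, is not given in the sources used here. Deposited expected counts divide shared reads by estimate and were rounded for intervals. The deposited TPM and FPKM values are, by their column names, scaled by length and library. The deposited signal columns give TPM interval bounds and the posterior SD, and the deposited percent columns give each transcript's share of its gene. Depth was 26583225 and 33142647 counts over all rows, spike-ins included, and since amplified reads are not separate molecules, intervals cover counting error only.

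A TPM of 1 counted as detected. The pseudocount was 1, the floor 3 counts. A gene pair was given a direction where both pups lay on one side and the deposited intervals did not overlap. Genes and transcripts took positions and classes from GENCODE M21 (GRCm38). Coding sequences were aligned pairwise, and pseudogenes were matched with BLAST 2.17.0 at 90% identity over 50% of their length. The size rule, run over all 43346 mouse genes, was tested on simulated counts of these genes: it listed 100% of 100 genes changed 8-fold, 0% of 100 changed 2-fold and 0% of 43146 unchanged ones. The simulation held counting error only. Its changed genes were drawn from genes above a minimum expected count, whereas many unchanged ones had few or no counts and could not be listed. The 0% is therefore no error rate for these data. edgeR 4.0.16 and DESeq2 1.42.0 gave scaling factors, in R 4.3.3. Other work used Python 3.11.15, scipy 1.17.1, pandas 2.3.3 and biopython 1.88.

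Named were factor genes averaging at least 100 TPM, those over 4-fold apart, both genes of each pair, all complex subunits, kinases and 4E-binding proteins, those at 0, and transcripts whose lead differed. Members, roles, pairs and lists were chosen with earlier results of these data known. Alternatives changed the detection threshold, scaling, pseudocount, unit, low-value filter, count minimum and libraries. No protein sequence was used here.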

Additional observations from a re-analysis of the deposited data

How the results depend on the processing

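No paired analysis was possible because both libraries form 1 group. The 4 pairs given no direction changed sign with the library left out: Eif4e over Eif4e2 ran from -0.88 to 1.59, Eif4g1 over Eif4g3 from -2.69 to 1.20, Eif1ax over Eif1a from -0.18 to 2.65, and Eif3j1 over Eif3j2 from -0.03 to 1.17. Leaving out genes with under 3 counts in the lower library, 4 in place of 7 factor genes were over 4-fold higher in pup 1. With a pseudocount of 0.1 the log2 ratio of Eif4ebp2 over Eif4ebp1 was -3.75 in place of -2.13, a value that depends on the 0 in pup 3. Over genes averaging at least 10 TPM, the median log2 ratio of pup 3 over pup 1 was -0.013 in place of -0.16, against 0.07 over all such mouse genes. On protein coding transcripts alone, a setting chosen after seeing the data, the log2 ratio of Eif4a1 over Eif4a2 reversed to 0.13 from -0.93. Among eIF3 subunits detected in both libraries, which leaves out Eif3j2, the fold between highest and lowest ran from 42.4 to 141 when a library was left out. It was 9.82 without Eif3j1, in place of 68.5, a setting also chosen after seeing the data. DESeq2 factors added Eif1a to the genes higher in pup 1, 8 in all, and TMM, DESeq2 and spike-in totals removed Eif4e2 from those higher in pup 3, leaving 3. The CPM limits given above for a count of 0 reflect read depth alone. Each library started from 13 pg of RNA, and loss of molecules before sequencing, which those limits do not cover, was not tested.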

Other observations

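The organelle has its own factors. Of 6 mitochondrial translation factor genes, 4 were detected in both libraries, 1 (Gfm1) in pup 1 alone and 1 (Mtif3) in neither, where 60.8% of all mouse genes seen were in both. Of the 5 seen, 3 were listed by the rule of size, 2 higher in pup 3 and 1 in pup 1, beside 46.5% of all mouse genes. Mtif3 had 0 and 22.3 counts and was listed as higher in pup 3 at under 1 TPM. Tufm, the mitochondrial elongation factor that delivers aminoacyl-tRNA, was at 28.2 TPM in pup 1 and 174 TPM in pup 3. The cytoplasmic gene of the same task, Eef1a1, was at 5896 and 2940 TPM, so these genes differed between pups in opposite directions by TPM. Of the 5 with a mean TPM of 1 or more, 4 were higher in pup 3 by TPM and 3 by counts under each scaling.

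Among genes of non-canonical initiation, Denr, which forms a tRNA-placing complex with Mcts1, was at 56.3 and 133 TPM, and the helicase Ddx3x was at 30.9 and 115 TPM. Ddit3, a stress gene, was at 45.9 and 21.1 TPM. Gm24616, a small RNA gene inside Eif4a2, had 0 counts in pup 1 and 135 in pup 3.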
